A study of Mus musculus with 23 samples.

Results

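Liver type 1 innate lymphoid cells (ILC1s) that carried a fate-map mark of past granzyme C expression, but were negative for the present reporter, were compared with liver ILC1s that lacked both signals. The libraries were chosen by the sorted population that their labels name. The marked cells, GzmC-GzmcFM+ and called fate-mapped single-positive (FMSP), gave 4 libraries, from mice 3, 4, 5 and 6. The unmarked cells, GzmC-GzmcFM- and called double-negative (DN), gave 3, from mice 2, 4 and 6. These 7 libraries are part of 15 RNA libraries from 6 mice and of 23 samples in all, 8 of them ATAC-seq libraries, which measure open chromatin. Beside them stood 4 libraries of GzmC+GzmcFM+ ILC1s, which express granzyme C (double-positive, DP), and 4 of S1pr5eGFP+ NK cells. Livers were cut up, digested with collagenase and put through a Percoll gradient. All cells of a population were sorted from 1 mouse per library. The fate-map mark reports whether a cell or its ancestor turned on the Gzmc reporter. Sex, age and strain are not given in the sources used here, nor is the efficiency of the mark, so a DN cell is one that lacks both signals.

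ILC1s are tissue-resident relatives of natural killer (NK) cells. They stay in the liver sinusoids, depend on the transcription factor Hobit and largely do without Eomes, whereas NK cells circulate, express Eomes and leave tissues through sphingosine phosphate receptors. Both kill with granules that hold perforin and granzymes. Granzyme B is the main granzyme for triggering apoptosis, and granzyme C is a close relative whose gene lies in the same cluster. The comparison asks what a mark of past granzyme C expression goes with in ILC1s that are negative for the present reporter.

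The promoters of Gzmb and Gzmc are shown because these are the leading gene of the comparison and the gene behind the sort. Each sequence is the 250 bases before the gene's start in the RefSeq table (build GRCm38.p6, minus strand, 5′ to 3′). For Gzmb it covers chr14:56262335-56262584, and for Gzmc it covers chr14:56234658-56234907. The start used for Gzmc lies inside the widest annotated span of that gene, which has longer predicted transcripts. Capitals mark matches, on either strand, to 3 motifs that bind factors of lymphocytes: the T-box core TCACAC, the AP-1 motif TGANTCA and the Runx motif TGTGGT.
Gzmb: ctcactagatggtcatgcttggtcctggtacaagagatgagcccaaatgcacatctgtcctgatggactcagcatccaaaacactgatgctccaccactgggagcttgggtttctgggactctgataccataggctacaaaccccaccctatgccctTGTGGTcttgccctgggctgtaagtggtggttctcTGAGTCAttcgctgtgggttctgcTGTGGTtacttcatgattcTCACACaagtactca
Gzmc: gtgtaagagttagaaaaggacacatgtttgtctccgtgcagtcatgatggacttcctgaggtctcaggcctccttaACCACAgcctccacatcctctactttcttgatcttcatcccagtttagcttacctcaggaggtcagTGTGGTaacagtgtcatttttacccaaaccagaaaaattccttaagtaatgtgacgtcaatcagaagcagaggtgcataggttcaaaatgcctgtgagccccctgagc
The Gzmb sequence holds 2 Runx matches, 1 AP-1 match and 1 T-box match, none overlapping another. The Gzmc sequence holds 2 Runx matches and 0 of the other motifs. Of 32851 promoters of the same length, 14.05% hold the Runx motif, 6.75% the AP-1 motif and 12.3% the T-box core. A match is a string of letters and shows no binding.

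The ATAC-seq libraries do not divide FMSP from DN cells, and for them the labels disagree on the gate. Liver ILC1s and liver NK cells had 2 such libraries each. A peak lay over each promoter. Given as CPM (counts scaled to a fixed total, here of each library's counts in peaks), the Gzmb peak held 63.4 and 70.8 CPM in the liver ILC1 libraries and 50.4 and 59.5 in the liver NK libraries. The Gzmc peak held 14.5 and 20.7 in liver ILC1s and 7.04 and 4.99 in liver NK cells, from 28 to 206 counts. The 2 ILC1 libraries thus lay above both NK libraries at each granzyme promoter. At the promoter of Eomes, the NK cell factor, the order was the opposite, with 30.5 and 26.5 in liver ILC1s and 76.8 and 84.5 in liver NK cells. With 2 libraries a group no test was made.

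Depth was even, from 51641248 to 73309063 counts per library over FMSP and DN. ILC1 genes were present in both groups. Cxcr6, the homing receptor of liver ILC1s, was measured at 830, 576 and 935 CPM in DN of mice 2, 4 and 6. It lay between 913 and 1359 CPM in FMSP, against a mean of 3.98 CPM in NK cells. Gzmc followed the sort. It was at 10.5, 10.2 and 13.6 CPM in DN and at 42.0, 26.4, 31.3 and 21.8 CPM in FMSP of mice 3 to 6. The groups did not overlap, and the 4 DP libraries, between 320 and 496 CPM, lay far above both. For FMSP against DN the log2 fold change of Gzmc was 1.41 ± 0.39 (SE), with an adjusted p of 0.504 in edgeR's quasi-likelihood test, and it was 1.34 without DN of mouse 2. The FMSP libraries thus held Gzmc RNA at a higher level than the DN libraries, though the gene was not called. In sorted bulk RNA, a few DP cells within the gate and a low level in reporter-negative cells cannot be told apart.

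One library stands apart. DN of mouse 2 held 105 genes at 50 CPM or more that stayed under 5 CPM in each of the other 14 libraries, and they took 2.00% of its counts. Every other library had between 0 and 11 such genes of its own. They are led by genes of the early embryo: Cer1, an inhibitor of nodal signalling, was at 3792 CPM there and at most 2.62 CPM elsewhere, and Lhx1, a factor of gastrulation, was at 646 CPM and at most 2.16 CPM elsewhere. Lefty1, another nodal inhibitor, was at 3373 CPM in this library and at 5.34 CPM or less in the others. The same library was low in Ncr1, the NKp46 receptor used to sort these cells, at 730 CPM against 1239 and 1448 CPM in the other DN libraries. Liver cell RNA varied as well. The summed level of 24 hepatocyte markers was 2287, 580 and 498 CPM in DN and 608, 207, 1769 and 3742 CPM in FMSP, so DN of mouse 2 and FMSP of mice 5 and 6 were high. In a principal component analysis, the 4 libraries of mice 1 to 3 parted from the 11 of mice 4 to 6 on the leading component, which held 19.4% of the variance. The Y-linked Ddx3y was at 43.7, 0 and 149 CPM in DN of mice 2, 4 and 6. In FMSP of mice 3 to 6 it was at 0, 0, 0 and 147 CPM. Y-linked RNA was thus unevenly spread over the 2 groups, and the part of sex in their differences was not tested. NK of mouse 4 carried Ddx3y at 121 CPM, whereas DN, FMSP and DP of that mouse lay at 0.0632 CPM or less, so this library goes against its mouse label. Fold changes and list medians without DN of mouse 2 are therefore given beside the main ones.

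**Figure D1:**
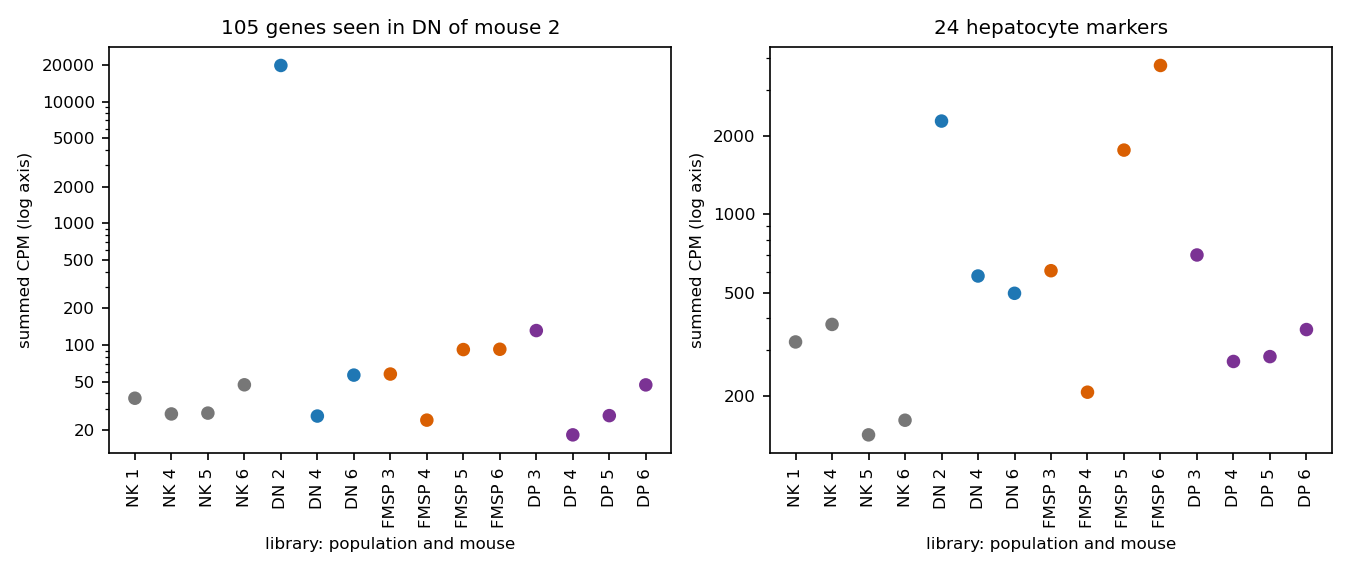
Left, summed CPM of the 105 genes seen in DN of mouse 2, and right, summed CPM of 24 hepatocyte markers, each point 1 library (log axes). DN of mouse 2 stands alone on the left, and on the right it lies high together with FMSP of mice 5 and 6.

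FMSP and DN cells differed in 1 of 17124 genes tested (0.00584% called, adjusted p below 0.05 in edgeR). That gene was Rhpn1, which fell in FMSP; it encodes rhophilin 1 and lies at chr15:75704246-75714419. Rhpn1 was at 12.6, 5.23 and 3.91 CPM in DN of mice 2, 4 and 6. FMSP libraries held 0 counts in mice 3, 4 and 6 and 1 count in mouse 5. Against 1595 counts over the DN libraries, that is a ratio of 1814 (95% exact counting interval from 325 to 71701), where the interval covers counting error only. All 3 DN libraries lay above all FMSP libraries. The 4 DP libraries held 0 counts and NK cells a mean of 33.9 CPM, so that DN cells reached 21.4% of the NK level. The adjusted p was 0.00331 in edgeR, and 0.00343 without DN of mouse 2, where 2 genes were called (0.0108%). Rhpn1 missed the threshold in the fit that blocks by mouse (adjusted p = 0.0703), in the fit without the 3 libraries high in hepatocyte markers (0.0853) and in the fit of FMSP and DN libraries alone (1.0). Over 18 alternatives the adjusted p ran from 2.56e-15 to 1.0. The gene was named because it is the only one called; its mean in DN was under the 10 CPM that the rule for naming genes asks for.

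At an unadjusted p below 0.05 there were 465 genes higher in FMSP (2.72% of those tested) and 699 lower (4.08%), and the median log2 fold change of all genes was -0.02. DESeq2 called 242 genes (1.35%), 105 of them higher and 137 lower. The libraries of the groups did not overlap for 414 genes higher in FMSP (2.42%) and 437 lower (2.55%). Without DN of mouse 2, which leaves 2 DN libraries, these shares were 7.26% and 7.57%. The genes below were named by the smallest p among those that reach 10 CPM and do not overlap, and none of them was called.

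Gzmb, granzyme B, led the genes that were higher in FMSP. It lay at 412, 654 and 558 CPM in DN of mice 2, 4 and 6 and at 1371, 1804, 1909 and 1155 CPM in FMSP of mice 3 to 6. The lowest FMSP library was thus well above the highest DN library. The log2 fold change was 1.53 ± 0.25 (SE), and the ratio of means was 2.88. The adjusted p was 0.105 in edgeR, so Gzmb was not called, and it ran from 1.74e-08 with DESeq2 to 1.0 over 18 alternatives. Without FMSP of mouse 6 the gene was called, with an adjusted p of 0.0467. In the 2 mice that gave both populations, FMSP exceeded DN by 1.46 in mouse 4 and by 1.05 in mouse 6 on the log2(CPM + 1) scale. Without DN of mouse 2 the log2 fold change was 1.36. In DP cells Gzmb averaged 2542 ± 569 CPM (SD, n = 4), and the test of DP against DN, which called 10 genes (0.0584%), gave a log2 fold change of 2.23 ± 0.25 with an adjusted p of 0.00133. FMSP lay 0.41 ± 0.19 above the midpoint of DN and DP (log2), with an adjusted p of 1.0. NK cells averaged 1384 CPM, within the range of FMSP.

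S100a6, a calcium-binding protein, was at 212, 222 and 236 CPM in DN and at 929, 500, 474 and 443 CPM in FMSP, without overlap. FMSP of mouse 3 was far above the rest of its group. Its log2 fold change was 1.39 ± 0.33 (edgeR, adjusted p = 0.342), and 1.35 without DN of mouse 2. S100a6 was called within mice 4 to 6 (adjusted p = 0.0102), and with the mouse as a fixed block (0.0334), where it was the only call. Its alternatives ran from 0.00952 to 1.0. S100a4, a member of the same family that was chosen after its values were seen, lay at 55.4, 125 and 194 CPM in DN and at 419, 250, 339 and 294 CPM in FMSP.

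Entpd1 encodes CD39, which breaks down extracellular ATP. It was at 58.3, 56.8 and 65.2 CPM in DN and at 138, 117, 148 and 90.9 CPM in FMSP. The tight DN libraries all lay under the FMSP libraries, and the log2 fold change was 1.04 ± 0.23 (1.01 without DN of mouse 2). The remaining genes of this direction were Crybg1, Pygl (liver glycogen phosphorylase), Hivep3 (a zinc finger protein), Kcnj8 (a subunit of ATP-sensitive potassium channels) and Fam177a. Mean levels of Pygl were 29.0 CPM in DN and 86.6 CPM in FMSP, and those of Kcnj8 were 88.0 and 201 CPM. Their log2 fold changes ran from 1.08 for Hivep3 to 1.85 for Fam177a, with adjusted p values between 0.206 for Crybg1 and 0.311 for Kcnj8. Without DN of mouse 2 they were smaller but still positive, from 0.82 for Hivep3 to 1.68 for Fam177a. Cdh17, the liver-intestine cadherin and also chosen after its values were seen, was at 11.3, 13.5 and 15.2 CPM in DN and at 129, 103, 125 and 37.1 CPM in FMSP. NK cells averaged 0.657 CPM of Cdh17, and DP cells averaged 124 CPM.

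**Figure D2:**
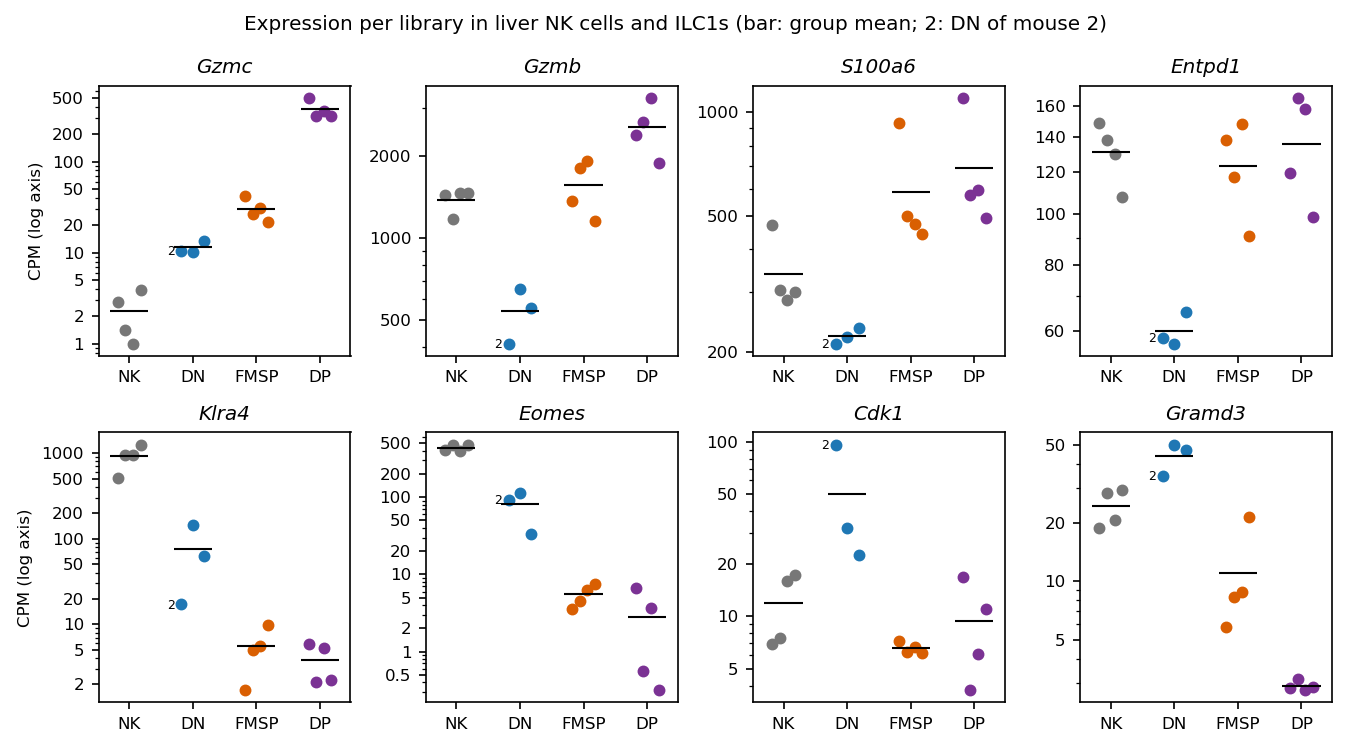
CPM of 8 genes in every library of the 4 populations, with a bar at each group's mean and a 2 beside DN of mouse 2 (log axes). FMSP lies above DN for Gzmc, Gzmb, S100a6 and Entpd1 and below it for Klra4, Eomes, Cdk1 and Gramd3, with no overlap between these groups.

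The 31 gene lists held 504 genes tested. None was called by edgeR, 95 had an unadjusted p below 0.05, and DESeq2 called 32. At that unadjusted p, 2.72% of all genes were higher in FMSP and 4.08% lower. Of the 504, FMSP lay above DN without overlap in 34 and below it in 43, where the shares of all genes were 2.42% and 2.55%. DESeq2 called 1.35% of all genes.

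Of 17 cytotoxic granule and killing genes tested, 5 were higher in FMSP without overlap (2.42% of all genes were) and 1 was lower (2.55%), with a median log2 fold change of 0.42 (0.29 without DN of mouse 2). The 5 were Gzmb, Ctsd, Cst7, Fasl and Gzmc, the gene behind the sort, and the exception was Gzmm, granzyme M. Cst7 encodes cystatin F, an inhibitor of granule cathepsins, and was at 172, 177 and 162 CPM in DN and at 394, 295, 252 and 214 CPM in FMSP. Prf1, perforin, was at 405, 515 and 425 CPM in DN and at 709, 416, 379 and 338 CPM in FMSP, so the groups overlapped. Gzma, granzyme A, ranged from 674 to 1819 CPM in DN and from 713 to 2820 CPM in FMSP. Its log2 fold change of 0.24 ± 0.49 (0.29 without DN of mouse 2) left room for a change in either direction.

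Among effector cytokines and chemokines, 5 of 22 were higher in FMSP without overlap (Xcl1, Ccl1, Ccl5, Ltb and Flt3l) and 2 were lower (Ccl9 and Il4). Over all genes these shares were 2.42% and 2.55%. The median of the list was 0.42, or 0.15 without DN of mouse 2. Xcl1 recruits cross-presenting dendritic cells. It was measured at 427, 507 and 656 CPM in DN and at 1092, 934, 965 and 888 CPM in FMSP, a log2 fold change of 0.87 ± 0.23 (edgeR, adjusted p = 0.500), or 0.73 without DN of mouse 2. Il4, a type 2 cytokine, was low throughout, at 3.48, 4.18 and 3.90 CPM in DN and between 0.139 and 1.02 CPM in FMSP.

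Receptor lists differed from each other. Over all genes, 2.42% were higher and 2.55% lower in FMSP without overlap, or 7.26% and 7.57% without DN of mouse 2. Of 24 NK activating receptor and adaptor genes, 22 had a positive fold change and 3 were higher without overlap: the adaptors Fcer1g, Tyrobp (DAP12) and Hcst (DAP10). The median was 0.35, and 0.11 without DN of mouse 2. Fcer1g was at 937, 879 and 1046 CPM in DN and at 2509, 1555, 1510 and 1337 CPM in FMSP. Again FMSP of mouse 3 was the highest, and the log2 fold change was 0.86 ± 0.27 (0.84 without DN of mouse 2). Of 17 inhibitory receptor genes, 5 were higher without overlap (Cd96, Cd160, Cd200r2, Entpd1 and Vsir) and 1 was lower (Btla), with a median of 0.58 (0.29 without DN of mouse 2). Vsir, the checkpoint receptor VISTA, was at 144, 167 and 158 CPM in DN and at 546, 251, 254 and 192 CPM in FMSP. Among 26 cytokine receptor genes Il2rb, Il21r and Il4ra were higher without overlap and the median was 0.06. That median was -0.06 without DN of mouse 2, with 3 genes higher and 3 lower (Il18r1, Il18rap and Ifngr1). Among 18 chemokine receptor genes Ccr8, Ccrl2 and Xcr1 were higher and Cxcr4 was lower, with a median of 0.30. It was 0.34 without DN of mouse 2, with 3 genes higher and 5 lower (Cxcr4, Ccr2, Ccr4, Ccr6 and Ccr9).

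Genes of NK cells lay lower in FMSP than in DN, though none was called. Of 20 genes of conventional NK cells, 18 had a negative fold change and 9 had an unadjusted p below 0.05 on this side (4.08% of all genes had). Without overlap, 8 were lower (2.55% of all genes were), among them Eomes, Klra4, Cma1, S1pr5, Klf2, Ly6c2 and Emb. Without DN of mouse 2 the last count was 13 of 20 against 7.57% of all genes. The median log2 fold change was -1.15, and -1.52 without that library. Cd7 was the member higher without overlap, at 2716, 2185 and 2559 CPM in DN and from 3428 to 6735 CPM in FMSP, against a mean of 385 CPM in NK cells. Emb did not behave as an NK gene here either, since the DN libraries lay above its mean in NK cells. DESeq2 called 6 of the 20 as lower, where it called 1.35% of all genes in either direction.

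Klra4, the activating receptor Ly49D, led them. It was at 17.1, 145 and 63.1 CPM in DN and at 1.70, 5.05, 5.61 and 9.69 CPM in FMSP, against a mean of 917 CPM in NK cells. The lowest DN library, that of mouse 2, was still above every FMSP library. Its log2 fold change was -3.77 ± 0.67 (edgeR, adjusted p = 0.175). Klra4 was called without DN of mouse 2 (log2 fold change -4.24, adjusted p = 0.0438) and within mice 4 to 6 (0.0174), and its alternatives ran from 5.25e-06 to 1.0. Members of the Ly49 family are close copies of each other, so reads may have been split among them. Of 16 Ly49 genes tested, 2 were lower without overlap (Klra1 and Klra4), against 2.55% of all genes, and 9 had a negative fold change. The median was -0.62, and -0.40 without DN of mouse 2. Summed over the family, the level was 574, 1873 and 1415 CPM in DN of mice 2, 4 and 6. In FMSP of mice 3 to 6 it was 580, 1620, 1598 and 1470 CPM, so the groups overlapped. DP of mouse 3 (836 CPM) and NK of mouse 1 (2788 CPM) were likewise the lowest of their populations. Klra9, which codes for another Ly49 receptor, went the other way, with a log2 fold change of 1.15 ± 0.48 (SE; 0.77 without DN of mouse 2), and was not called.

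Eomes, the T-box factor of NK cells, was at 93.3, 115 and 33.7 CPM in DN and at 3.55, 4.58, 6.24 and 7.61 CPM in FMSP. DP cells averaged 2.79 CPM and NK cells 440 CPM. The gap between FMSP and DN was as clear as for Klra4, with a log2 fold change of -3.88 ± 0.77 (-3.76 without DN of mouse 2) and an adjusted p of 0.206. Tbx21, its relative T-bet, was at 417, 573 and 456 CPM in DN and at 1059, 589, 504 and 520 CPM in FMSP, which overlapped. Lef1, a factor of precursor lymphocytes, was at 100, 51.8 and 39.2 CPM in DN and at 27.9, 16.9, 22.2 and 27.6 CPM in FMSP. Among 48 lymphocyte transcription factors, 4 were lower without overlap (2.55% of all genes were), Eomes, Lef1 and Klf2 among them. Zfp683 (Hobit), Tox and Stat5a were the 3 higher without overlap (2.42% of all genes were). Without DN of mouse 2 these numbers were 9 lower and 4 higher, where 7.57% and 7.26% of all genes were. The median was 0.18, and 0.05 without that library.

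S1pr5, the sphingosine phosphate receptor whose reporter marks the NK sort, was at 34.7, 99.8 and 45.5 CPM in DN and from 14.2 to 21.8 CPM in FMSP. Of 13 tissue egress genes tested, 5 were lower in FMSP without overlap (2.55% of all genes were), with a median of -0.79 (-0.96 without DN of mouse 2). The 5 include S1pr5, Klf2 and Ly6c2, which are in the NK list too. Itgb7, an integrin chain, was the member higher without overlap. Of 18 tissue residency genes, Zfp683, Entpd1, Ccr8 and Litaf were higher without overlap (2.42% of all genes were), and the median was 0.51 (0.34 without DN of mouse 2). Among 22 liver ILC1 genes 3 were higher in this way, Zfp683, Cd200r2 and Xcl1.

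As a share of the mean in NK cells, the median of the 20 NK genes was 8.21%, 20.7% and 10.8% in DN of mice 2, 4 and 6. It was 5.89%, 3.32%, 4.09% and 9.05% in FMSP of mice 3 to 6 and between 1.96% and 5.51% in DP. FMSP of mouse 6 thus lay above DN of mouse 2, while in the mice with both populations DN was the higher one. In sorted bulk RNA, fewer NK cells within a gate and less of these transcripts per cell cannot be told apart. Clip4, a gene of the cytoplasmic linker family that was chosen after its values were seen, had the same pattern as Rhpn1. It was at 1.76, 5.77 and 1.86 CPM in DN, at 0 counts in all FMSP libraries and at a mean of 15.5 CPM in NK cells. Against a floor of 3 counts over the FMSP group, Clip4 was at least 258-fold lower in FMSP (edgeR, adjusted p = 0.105).

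**Figure D3:**
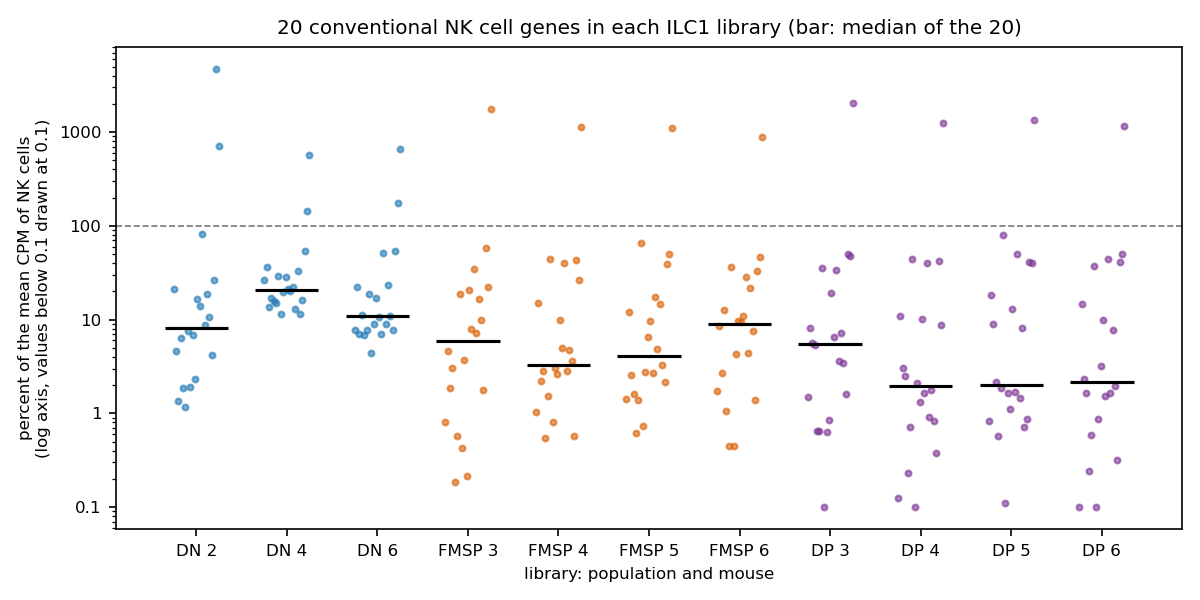
Each of 20 conventional NK cell genes in each ILC1 library as a percent of its mean CPM in NK cells, with a bar at the median of the 20 (log axis). The medians were 8.21% to 20.7% in DN, 3.32% to 9.05% in FMSP and 1.96% to 5.51% in DP. The points above 100% are Cd7 in each library and Emb in the DN libraries.

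Cell cycle genes lay lower in FMSP throughout their list, again with no call in edgeR. All 32 had a negative fold change. An unadjusted p below 0.05 was found for 23 (4.08% of all genes had one on this side), and 18 were lower without overlap (2.55% of all genes). DESeq2 called 14, where it called 1.35% of all genes in either direction. The median log2 fold change was -2.92. Without DN of mouse 2 it was -1.62, again with 18 of 32 lower without overlap, where 7.57% of all genes were, and 14 had an unadjusted p below 0.05. DN of mouse 2, the library with the embryonic genes, was also the highest for this list: the summed level of the 32 genes was 3783, 1534 and 1048 CPM in DN of mice 2, 4 and 6. In FMSP it was 887, 758, 750 and 705 CPM, in DP from 685 to 1036 CPM, and in NK cells from 1000.2 to 1455 CPM.

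Cdk1, the kinase that drives entry into mitosis, was at 95.9, 32.1 and 22.5 CPM in DN and at 7.23, 6.29, 6.69 and 6.19 CPM in FMSP. The FMSP libraries were nearly alike and all under the lowest DN library. The log2 fold change of Cdk1 was -2.93 ± 0.57 (edgeR, adjusted p = 0.206), and -2.05 without DN of mouse 2. Top2a, which untangles DNA for cell division, was at 177, 67.6 and 36.6 CPM in DN and at 3.64, 20.9, 8.23 and 10.6 CPM in FMSP, with a log2 fold change of -3.11 ± 0.58. Stmn1, a microtubule-destabilizing protein, was at 426, 202 and 89.2 CPM in DN and between 25.9 and 62.6 CPM in FMSP, with a log2 fold change of -2.58 ± 0.47. Ccnb2, cyclin B2, averaged 34.3 CPM in DN and 3.76 CPM in FMSP, and its log2 fold change was -3.19 ± 0.58. These fold changes were smaller without DN of mouse 2, at -2.27 for Top2a, -1.87 for Stmn1 and -2.33 for Ccnb2. The adjusted p was 0.191 for Top2a and 0.175 for Stmn1 and Ccnb2. Stmn1 was called without DN of mouse 6 (adjusted p = 0.0345), and its alternatives ran from 6.93e-05 to 1.0. Pcna, Mcm2 and the other Mcm genes, which serve DNA replication, lie at the bottom of the heat map, where the fold changes are the smallest of the list.

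**Figure D4:**
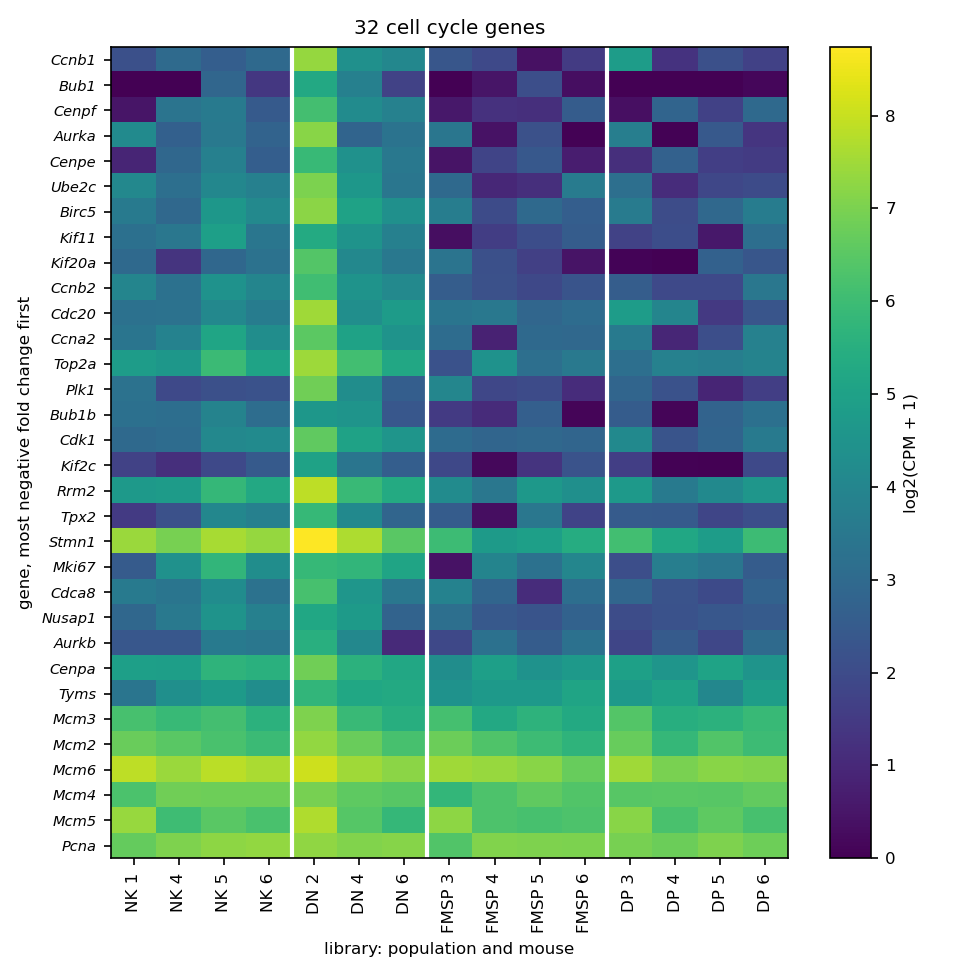
Heat map of log2(CPM + 1) for 32 cell cycle genes (rows, most negative fold change on top) in 15 libraries (columns, by population and mouse). DN of mouse 2 is brightest for most genes, DN of mice 4 and 6 follow, and the 4 FMSP columns are darker for the genes of mitosis.

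Prim1, the catalytic subunit of DNA primase, is not in that list. It was at 28.5, 33.2 and 25.3 CPM in DN and at 6.99, 11.2, 13.7 and 8.03 CPM in FMSP. The groups were apart and DN of mouse 2 did not stand out, so the log2 fold change was -1.54 ± 0.28 with that library and -1.55 without it (edgeR, adjusted p = 0.175 with it). Gramd3, a protein with a lipid-binding GRAM domain, was at 34.7, 50.1 and 47.0 CPM in DN and at 5.78, 8.24, 8.76 and 21.4 CPM in FMSP. FMSP of mouse 6 lay nearest to DN. Its log2 fold change was -1.99 ± 0.39 (adjusted p = 0.206), or -2.14 without DN of mouse 2, and without FMSP of mouse 6 Gramd3 was called (adjusted p = 0.0160); over its alternatives the value ran from 6.93e-05 to 1.0. In DP cells Gramd3 was between 2.75 and 3.13 CPM and, against DN, fell by 3.92 on the log2 scale (SE 0.42, edgeR, adjusted p = 0.000724). Emb, the membrane protein embigin, rests on 1 library for its size. It was at 3004 CPM in DN of mouse 2, at 90.7 and 110 CPM in DN of mice 4 and 6 and from 14.2 to 32.3 CPM in FMSP, with a log2 fold change of -5.52 ± 1.06, and of -2.11 without DN of mouse 2.

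T cell transcripts were present in both groups and varied by library. The summed level of 21 T cell genes ran from 3681 to 3899 CPM in DN and from 3289 to 4483 CPM in FMSP. Of 20 tested, 2 (Cd6 and Izumo1r) were lower in FMSP without overlap, against 2.55% of all genes. Without DN of mouse 2, 5 were lower and 3 higher without overlap, against 7.57% and 7.26% of all genes. Of these 20, 14 had a negative fold change, with a median of -0.23 (-0.30 without DN of mouse 2). Cd3e was at 536, 180 and 165 CPM in DN and at 304, 141, 32.4 and 281 CPM in FMSP. For genes of NKT and gamma-delta T cells, the summed level was 575 to 810 CPM in DN and 518 to 619 CPM in FMSP. Among 12 tested, 10 had a negative fold change, with a median of -0.90 (-0.84 without DN of mouse 2), so these markers lay on the same side as the NK and cell cycle genes. Tcrg-C1, Cd163l1 and Sh2d1a were lower without overlap, and Blk was higher (2.42% of all genes were). Sh2d1a, the adaptor SAP, was at 22.7, 40.0 and 19.9 CPM in DN and at 2.69, 3.68, 3.19 and 16.2 CPM in FMSP, and it was called without FMSP of mouse 6 (adjusted p = 0.0467, with a range from that value to 1.0 over the alternatives). Il17a was at 0 in all 7 libraries. Without the 3 libraries high in hepatocyte markers, the log2 fold change was 1.39 for Gzmb, -4.19 for Eomes and -2.01 for Cdk1. The part of T cells in the differences between FMSP and DN was not tested.

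The lists other than markers of other cell types are shown by their medians in the plot of gene lists. NK cell, egress and cell cycle genes stayed negative with and without DN of mouse 2, and the granule, cytokine and chemokine, activating receptor, inhibitory receptor, residency and ILC1 lists stayed positive. Other lists kept their sign too. Ly49, precursor and mitochondrially encoded genes stayed negative. Chemokine receptor, transcription factor, TGF-beta response, immediate early and ribosomal protein genes stayed positive. Without DN of mouse 2 the medians of activating receptors (0.11) and of cytokines and chemokines (0.15) lay below that of ribosomal protein genes (0.30).

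**Figure D5:**
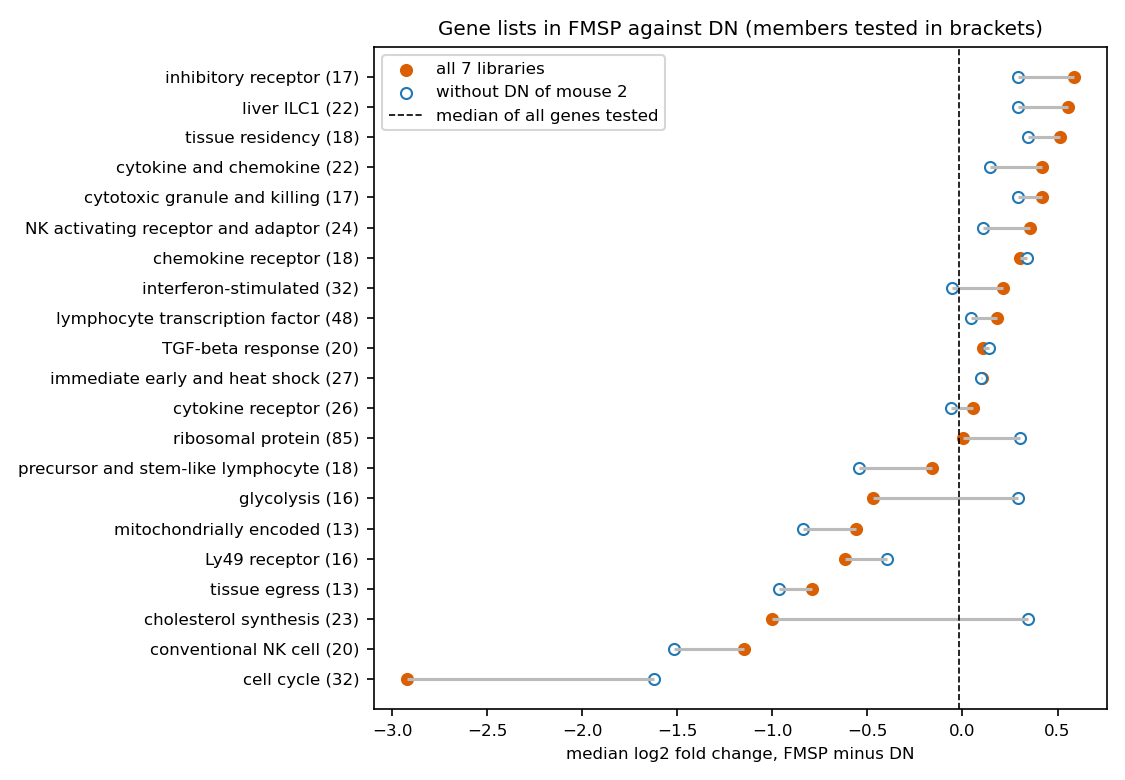
Median log2 fold change of FMSP minus DN for each of 21 lists, with all 7 libraries (filled) and without DN of mouse 2 (open); the dashed line is the median of all genes. The dashed line was drawn with DN of mouse 2 kept. Cell cycle moves from -2.92 to -1.62, and the cholesterol synthesis, glycolysis, cytokine receptor and interferon-stimulated lists change sign.

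Against the midpoint of DN and DP, edgeR called no gene for FMSP (0% of 17124). At an unadjusted p below 0.05 there were 715 genes, 470 of them higher, and DESeq2 called 150, of which 107 were higher. The smallest adjusted p in edgeR was 1.0. A missed threshold does not show that FMSP cells sit midway.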

How the data were processed

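RNA values are expected counts per gene, whole numbers as deposited by the authors, for 35645 genes and 15 libraries. Salmon 1.6 and build mm10 are named per the submitters' processing notes. ATAC-seq values are read counts per peak as deposited by the authors, made with Bowtie2, SAMtools and MACS2 per the same notes, and divided here by each library's total. The strand, and how reads shared by gene copies were assigned, are not given in the sources used here. In 26 entries with 0.265% of the counts a date stood in place of the gene name, and these stayed in the fit unnamed.

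Counts were fitted with edgeR 4.0.16 in R 4.3.3 (TMM factors, filterByExpr at a minimum count of 10, robust quasi-likelihood fit, 1 mean for each of the populations over all 15 libraries, 11 residual degrees of freedom). Tests are 2-sided with Benjamini-Hochberg adjustment over all 17124 genes, with a gene called where its adjusted p is below 0.05. Levels are CPM on TMM-scaled library sizes, errors of fold changes are SE from the F statistic, and fitted folds of genes near 0 counts depend on the prior count. DESeq2 1.42.0 and limma voom 3.58.1 were alternatives. On simulated counts for the same groups, DESeq2 called many genes that had not been changed and edgeR few. Those counts were drawn with the spread that edgeR had estimated, with no mouse effect and no library that stands apart. The simulation therefore cannot decide between the tools for these data, and DESeq2's counts are given as an alternative only. The p-values rest on the spread between libraries within a population, pooled over all populations. They treat libraries of the same mouse as independent.

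The labels give each library's mouse, so FMSP and DN pair in mice 4 and 6. Deviations from the group means correlated at r = 0.324 between the 2 libraries of mouse 4 and at 0.0702 between those of mouse 6, and the consensus correlation within a mouse in voom was 0.497. The main fit had no block.

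Named were genes of at least 10 CPM whose FMSP and DN libraries do not overlap, predicted genes left out: the 15 highest and 15 lowest called, or, where a direction had fewer than 8, those with the smallest p up to 8, and any member of the gene lists. A few members are not reported here by name. The members and lists were chosen with earlier results of these data known. Intervals and floors cover counting error only, since reads without molecular identifiers are not independent molecules. Promoters come from the RefSeq table of GRCm38.p6.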

Additional observations from a re-analysis of the deposited data

Results flagged for a closer look

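Among the 4 FMSP libraries of 91 genes, 12 had 1 library far from the rest. The rule flags about 1 in 20 groups of independent, normally distributed values. These genes share libraries and were not chosen at random, so that rate cannot be set against the 12. FMSP of mouse 3 was the high one in 9 of these genes. It held Fasl, the death ligand, at 332 CPM (next highest 231), Nkg7, a granule membrane protein, at 5977 CPM (2708), and Hcst at 564 CPM (286). For Itgb7 it held 1932 CPM (862), for Tbx21 1059 CPM (589) and for S100a6 929 CPM (500.1). The cytokine receptor genes Il2rb and Il4ra were at 7705 CPM (4014) and 488 CPM (142) in the same library, and the chemokine receptor gene Ccr8 was at 37.6 CPM (9.72). FMSP of mouse 6 was high for Klrg1, an inhibitory receptor, at 82.0 CPM (19.96), and for Sh2d1a at 16.2 CPM (3.68). Rhpn1 was at 0.0150 CPM in FMSP of mouse 5, which is 1 count, and at 0 in the other three.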

How the results depend on the processing

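Main counts of calls were 1 for FMSP against DN, 0 for the gene lists and 0 against the midpoint. In that order DESeq2 gave 242, 32 and 150 calls, and limma voom with the mouse as a random replicate block gave 11, 2 and 1. With the mouse as a fixed block, 1 gene was called for FMSP against DN, S100a6 in place of Rhpn1. The block without NK of mouse 4 gave 0 calls and the block within mice 4 to 6 gave 2, both chosen after seeing the data, as were the list values without DN of mouse 2. Mice 4 to 6 without a block gave 3 calls, 1 of them in the lists. Fits without the 3 libraries high in hepatocyte markers, and fits of FMSP and DN libraries alone, gave 0. Leaving out 1 library gave 1 to 4 calls for FMSP against DN and 0 to 2 in the lists: 2 and 1 without DN of mouse 2, 3 and 1 without DN of mouse 6, and 4 and 2 without FMSP of mouse 6. Against the midpoint it gave 0. The cause was not tested. Other scalings and no filter on low counts left each count as it was.

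Of 1636 log2 fold changes for 91 genes under the alternatives, 1574 kept direction and call, 45 gained a call, 32 of them with DESeq2, 4 lost it and 13 changed sign, in Prf1, Gzma, Itga1 and Cd3e. Prf1 (0.04) was -0.093 with library totals, -0.37 with the fixed block, -0.20 with the voom block, -0.31 in mice 4 to 6, -0.38 in the block without NK of mouse 4 and -0.38 in the block within mice 4 to 6. Without the hepatocyte-high libraries Itga1 (0.59) was -0.0457 and Cd3e (-0.63) was 0.37. Leaving out 1 library, Prf1 ran from -0.24 to 0.16, Gzma from -0.24 to 0.57 and Cd3e from -0.94 to 0.13. There are 3 DN libraries, of which 1 stands apart, so the number of mice limits the precision.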

Other observations

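Medians of some growth and metabolism lists changed with DN of mouse 2 left out. The summed level of glycolysis genes was 14587, 4835 and 5168 CPM in DN of mice 2, 4 and 6. It was 10136, 4725, 5015 and 4756 CPM in FMSP of mice 3 to 6. DP of mouse 3 (9089 CPM) and NK of mouse 1 (9733 CPM) were high as well, and ribosomal protein genes were highest in the same libraries. Without DN of mouse 2, FMSP of mouse 3 was the only library of mice 1 to 3 left in FMSP against DN. Its part in those medians was not tested. The 23 cholesterol synthesis genes had a median log2 fold change of -1.001 for FMSP against DN with that library and 0.34 without it, and the 16 glycolysis genes had -0.47 and 0.29. Of 85 ribosomal protein genes tested, 1 was higher in FMSP without overlap and 2 were lower, with a median of 0.00; without DN of mouse 2 these numbers were 34, 3 and 0.30, where 7.26% of all genes were higher. The 13 mitochondrially encoded genes had a median of -0.56, and -0.84 without that library.

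Stress and TGF-beta response lists lay closer to the median of all genes (-0.02) than the interferon-stimulated list did. For 27 immediate early and heat shock genes the median was 0.10 and no gene had an unadjusted p below 0.05. The 20 TGF-beta response genes had a median of 0.11. The 32 interferon-stimulated genes had 0.22, with 23 positive fold changes, but -0.06 without DN of mouse 2.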
